A study of Mus musculus with 16 samples.

Results

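The regions described here are 400 bins of 500 bp where Myc was read in concanavalin A-treated T cells and was weakest, relative to IgG, in lipopolysaccharide-treated B cells. Chromosomes 1 to 19 of the mm8 build were cut into 4924849 bins, and each read was placed by its midpoint. Of these bins, 4429 held at least 8 reads in the Myc library of T cells at 4 h and at most 1 read in the matching IgG library. The members were chosen by measured values: T cell Myc and IgG reads set the filter, and the 400 bins with the lowest log2 ratio of pooled Myc to pooled IgG in treated B cells (ties by position) were then taken, so members made up 9.03% of the 4429. The remaining 4029 bins are called the other T cell bins. Levels are RPM, read counts scaled to the library's reads on chromosomes 1 to 19, and 0.1 RPM was added to both sides of the ranking ratio.

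Myc is a transcription factor that binds DNA as a dimer with Max, and it is induced when resting lymphocytes are activated. Its sites lie largely at promoters and enhancers that already carry open chromatin, and RNA polymerase II (Pol2) is usually found at the same places. Chromatin immunoprecipitation sequencing (ChIP-seq) counts the DNA fragments pulled down with an antibody, and a non-specific IgG gives the background of the same chromatin.

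All cells came from mouse spleen. B cells were untreated (B0), or given 25 µg/ml of lipopolysaccharide (LPS) for 4 h (B4), in some cultures together with 10058-F4, a small molecule that disrupts the Myc-Max dimer. T cell cultures received concanavalin A (ConA), a T cell mitogen, at 7.5 µg/ml for 4 h (T4) or 14 h (T14). Myc libraries were made with an antibody to EGFP. The labels give no genotype, age or strain for any group, and they do not say how the tagged Myc was expressed or whether replicate libraries stem from different mice. The titles of the B4 Pol2 library and of B4 IgG replicate 2 carry the mark wt, which the labels do not explain. B4 had 2 Myc, 3 IgG and 1 Pol2 libraries, B4 with 10058-F4 had 1 Myc, 2 IgG and 1 Pol2 libraries, and B0, T4 and T14 had 1 Myc and 1 IgG library each. For T14 the titles and the names of the deposited files give opposite antibodies, so both libraries are named below by their title, as labelled T14 Myc and labelled T14 IgG.

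Depth on chromosomes 1 to 19 ran from 1278471 reads in B4 IgG replicate 2 to 7433203 in B0 Myc. Reads were 25 bases long in T cells, 24 to 30 in B4 Myc and IgG replicate 1, and 45 in all other libraries. The mean level of a bin over the genome was 0.203 RPM in every library, which follows from the scaling. Intervals below are exact 95% intervals for counting error only. The B0, T14, Pol2 and held-out B4 values rest on 1 library a side and have no test across samples. For the 2 unused or mostly unused measures with more libraries, an exact permutation test over libraries is given, which cannot reach the usual threshold. Genes and sequences were not assigned to the bins because no mm8 annotation or sequence was used here, and for the same reason the identity of the B and T cells was not checked at marker genes.

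The members' levels in T4 and B4 follow from how they were chosen and are given as a description. T4 Myc averaged 1.98 RPM (3505 reads) over the members and 2.25 RPM over the other T cell bins, against 0.192 and 0.206 RPM of T4 IgG. Most members lay at the lowest admitted T4 count: 248 held 8 reads and 80 held 9, and 15 held 12 or more. The other T cell bins were less concentrated there, with 40.1% at 8 reads and 18.4% at 12 or more. In B4, members averaged 0.0851 RPM in Myc replicate 1 and 0.106 RPM in replicate 2, and 0.676, 0.860 and 0.483 RPM in IgG replicates 1, 2 and 3. Both B4 Myc libraries were therefore under the genome mean at the members and all 3 B4 IgG libraries were above it. Of the 400, 235 had 0 reads in the pooled B4 Myc libraries and 132 had 1, and no member had more than 4. Members had 2 to 23 pooled B4 IgG reads with a median of 5, which was also the median of the other T cell bins. Another 70 bins without a B4 Myc read stayed outside the 400 because they held too few IgG reads.

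The ranking ratio of members ran from −3.94 to −1.09 with a median of −1.70, against a median of 1.11 in the other T cell bins. The cut fell within 52 bins of equal value, all with 1 pooled B4 Myc and 5 pooled B4 IgG reads, of which 27 were inside and 25 outside. Just inside lay chr9:110526501-110527000, chr9:123617001-123617500 and chr10:7629501-7630000, with 8, 10 and 8 T4 Myc reads. Just outside lay chr10:18696501-18697000, chr10:21019001-21019500 and chr10:75279001-75279500, with 8, 8 and 10. Position alone separated them.

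The lowest ranking value, −3.94, was at chr7:134404501-134405000, with 9 T4 Myc reads and 0 B4 Myc reads. Its B4 IgG reads were 10, 3 and 1 in the 3 replicates, so 1 library held most of them. At chr7:97456001-97456500 the B4 IgG reads were 8, 1 and 4, with 0 B4 Myc and 9 T4 Myc reads, and at chr10:127068501-127069000 they were 3, 4 and 5, with the same 0 and 9. The next 3, chr3:97244001-97244500, chr4:126746001-126746500 and chr11:4887001-4887500, shared a value of −3.49, with 0 B4 Myc and 10 pooled IgG reads each. These 6 bins differed in Pol2, with 1, 15, 5, 13, 23 and 7 B4 Pol2 reads in the order given.

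**Figure D1:**
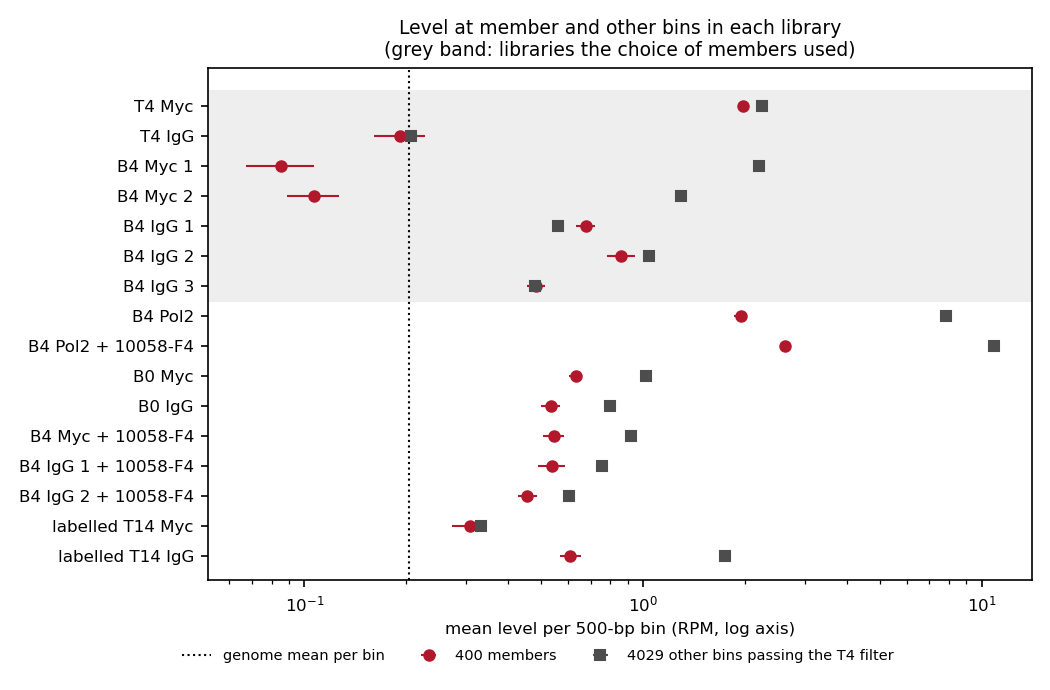
Mean level per 500-bp bin (RPM, log axis) in each of the 16 libraries at the 400 members (red circles) and the 4029 other T cell bins (grey squares), with exact 95% Poisson intervals; the dotted line is the genome mean of 0.203 RPM and the grey band holds the libraries that the choice of members used. B4 Pol2 was 1.94 RPM at the members and 7.85 RPM at the other bins, and both B4 Myc libraries lay under the genome mean at the members.

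Members were weak in B4 Myc in the libraries that chose them, but bins chosen in the same way from 1 pair of B4 libraries were above IgG in the other pair. When the 400 weakest bins were chosen with Myc and IgG replicate 1 alone, the summed log2 ratio in that pair was −6.14 (−7.10 to −5.33). In the pair titled as the repeat, Myc replicate 2 and IgG replicate 3, the same bins held 632 Myc and 764 IgG reads, a log2 ratio of 0.45 (0.30 to 0.60). The remaining bins had 1.35 (1.31 to 1.38) there. Choosing with the repeat pair gave −4.23 (−4.69 to −3.79) in that pair and 0.80 (0.65 to 0.95) in the first pair, against 1.88 (1.85 to 1.92) for the remaining bins. In both directions the unused pair put the chosen bins below the remaining T cell bins and above IgG. Of the 400 members, 193 were among the bins chosen with the first pair and 181 among those chosen with the repeat pair. With at least 12 T4 Myc reads, where 400 of only 757 bins were chosen, the value of 0.45 was 1.51. With bins starting 250 bases later it was 0.27. The 2 pairs differ in read length as well as in replicate.

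**Figure D2:**
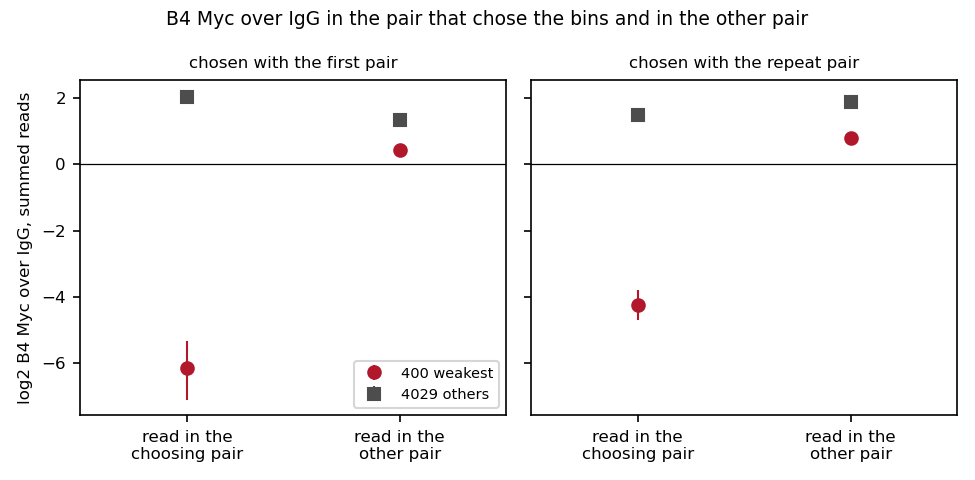
Log2 ratio of summed B4 Myc to IgG reads at the 400 weakest bins (red circles) and the 4029 remaining bins (grey squares), read in the pair of libraries that chose the bins and in the other pair; bars are exact 95% binomial intervals. The 400 weakest bins lie at −6.14 and −4.23 in the choosing pair and at 0.45 and 0.80 in the other.

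The reads next to each member give a second measure that the choice left mostly unused. Bins beside were not filtered: 2 pairs of members were adjacent, so each of these is also a neighbour. A bin beside passed the T4 filter for 28 members (7%) and 14.4% of the other T cell bins, so T4 values beside them are partly chosen. In the 800 bins directly beside the members, pooled B4 Myc over IgG had a log2 ratio of 0.33 (0.25 to 0.42), against −2.62 (−2.83 to −2.42) in the members themselves. At 1 kb it was 0.08 (−0.02 to 0.17) and at 5 kb 0.05 (−0.05 to 0.15). The members' value was set by the ranking and that of nearly all neighbours was not, so the step between them is no finding. Beside the members the first pair of libraries gave 0.59 (0.46 to 0.72) and the repeat pair 0.33 (0.21 to 0.46). By library, B4 Myc beside the members was 0.532 and 0.369 RPM and B4 IgG 0.353, 0.553 and 0.293 RPM, so the groups overlapped. The mean log2 difference of 0.20 had a two-sided exact permutation p of 0.6 over the 2 Myc and 3 IgG libraries, where 0.1 is the smallest that 10 arrangements allow. Beside the other T cell bins the ratio was 0.89 (0.87 to 0.91). T4 Myc over IgG beside the members was 0.57 (0.43 to 0.71), and beside the other T cell bins 0.81 (0.77 to 0.85), both above the 0.29 (0.13 to 0.46) and 0.32 (0.27 to 0.38) found at 5 kb. Within the member and the bins beside it, the median T4 Myc read on the minus strand lay 35 bp to the right of that on the plus strand, against 38 bp at the other T cell bins. T4 Myc set the filter, as did T4 IgG, where these offsets were −10 and −88 bp. In libraries that the choice did not use, the offsets of members and others differed. They were 15 and 63 bp in labelled T14 IgG, and 51 and 98 bp in B4 Pol2.

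Members carried less B4 Pol2 than the other T cell bins and more than the genome. Their mean was 1.94 RPM (1.85 to 2.03, 1847 reads), which was 9.57 times the genome mean, and the other T cell bins averaged 7.85 RPM (7.79 to 7.90). The ratio of members to the others was 0.248 (0.236 to 0.259). The median member held 2 Pol2 reads and the middle of the distribution ran from 0 to 6 (quartiles), with a maximum of 42, whereas the other bins had a median of 16 with quartiles of 3 and 29. At least 5 Pol2 reads were found in 119 members (29.8%), against 68.9% of the 4429 bins and 1.44% of all bins with a read in any library. At least 20 were found in 23 members (5.75%), against 38.1% and 0.222%. No Pol2 read was found in 127 members (31.8%), against 11.8% of the other T cell bins, and 0 reads in this library allow up to 1.26 RPM in a bin. The members thus lay between T cell bins in general and the genome in their Pol2. Pol2 in B4 with 10058-F4, a deeper library, gave 2.63 RPM (2.56 to 2.70) at members and 10.9 RPM (10.8 to 10.9) at the others. In that library 201 members (50.2%) held at least 5 reads, against 77.1% of the 4429 bins and 3.37% of all bins.

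The Pol2 ratio depended on the B4 libraries used and on the T4 threshold, among other settings. Without each B4 library in turn it ran from 0.215, without IgG replicate 2, to 0.424, without Myc replicate 2. With at least 12 T4 Myc reads it was 0.705, where 400 of only 757 bins were taken and 15 members remained. It stayed below 1 in every alternative run.

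The member with most Pol2, chr19:36991001-36991500, had 42 reads (17.7 RPM), and 159 with 10058-F4. It held 10 T4 Myc reads, 0 B4 Myc reads and only 2 pooled B4 IgG reads. At chr7:101843501-101844000 there were 34 Pol2 reads, with 1 B4 Myc read against 11 IgG reads, and at chr11:75995501-75996000 also 34, with 1 against 7. Next came chr10:79427501-79428000 with 33 Pol2 reads, chr1:136949001-136949500 with 29 and chr1:82718501-82719000 with 28. The 6 bins held 0 to 2 pooled B4 Myc reads. Their T14 reads were few, from 1 to 6 in labelled T14 IgG and 0 to 2 in labelled T14 Myc.

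Members also lay farther from strong Pol2, where a bin with 20 or more B4 Pol2 reads counted as 0 kb from itself. The nearest bin with 20 or more B4 Pol2 reads was at a median of 36.5 kb from a member (quartiles 6 and 129 kb) and 0.5 kb from the other T cell bins (0 and 40.5 kb). Such a bin lay within 1 kb of 58 members (14.5%) and of 54.2% of the others, and none lay within 100 kb of 126 members (31.5%) and of 15.5% of the others. Of the bins themselves, 23 members (5.75%) and 1665 others (41.3%) held 20 or more reads. The short distances therefore largely repeat that count and are no separate measure of the surroundings. Beside the members Pol2 was 1.51 RPM (1.45 to 1.56) and at 5 kb it was 0.595 RPM (0.561 to 0.631), against the 0.679 RPM (0.668 to 0.691) at 5 kb from the others.

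**Figure D3:**
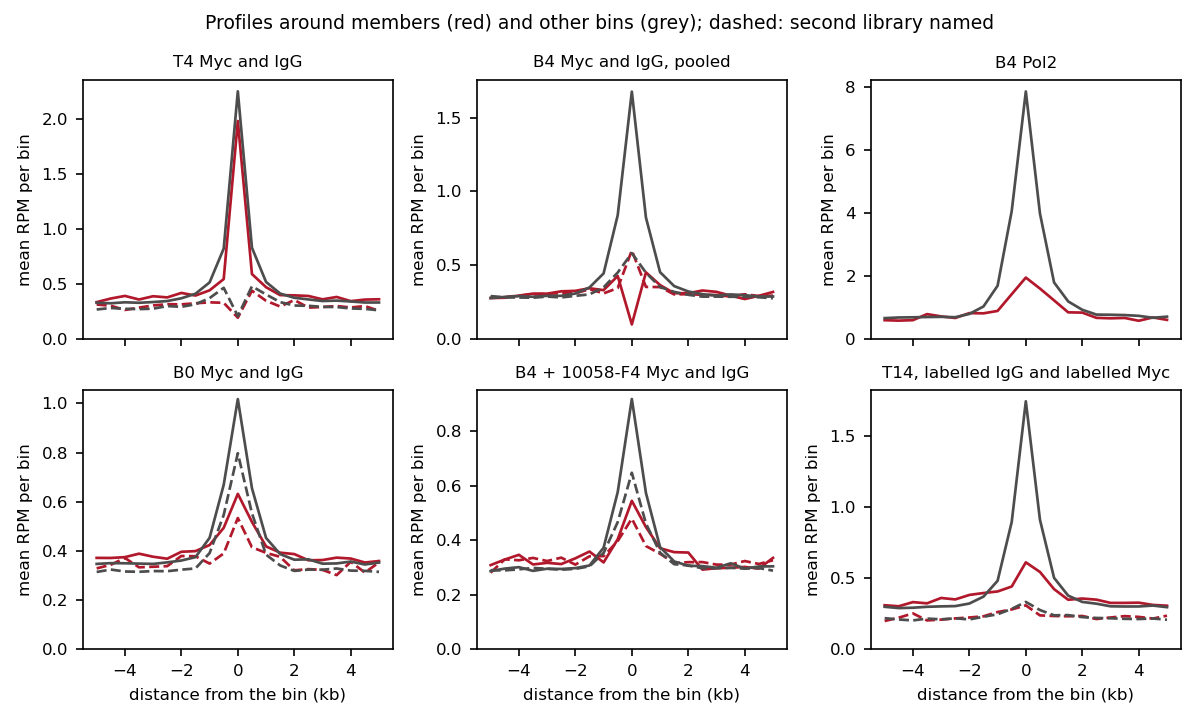
Mean RPM per 500-bp bin against distance from the bin (kb) for the members (red) and the other T cell bins (grey), with the second library of each pair dashed. The central bins of T4 and B4 Myc and IgG were set by the choice, and Pol2 at members peaks at 1.94 RPM against 7.85 RPM.

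The IgG libraries that the choice did not use were also above the genome mean at members. B0 IgG averaged 0.534 RPM (0.499 to 0.570), and the 10058-F4 IgG libraries 0.538 (0.490 to 0.590) and 0.455 RPM (0.426 to 0.486). These levels were 2.63, 2.65 and 2.24 times the genome mean. The other T cell bins were higher, at 0.798, 0.755 and 0.604 RPM. Of the B4 IgG libraries, which the ranking used, replicate 1 was higher at members (0.676 RPM) than at the others (0.559 RPM), replicate 2 was lower (0.860 and 1.04 RPM) and replicate 3 had 0.483 and 0.481 RPM.

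In resting B cells, Myc at members was slightly above IgG. B0 Myc averaged 0.632 RPM (1879 reads) against 0.534 RPM of B0 IgG, a log2 ratio of 0.24 (0.13 to 0.36). The other T cell bins had 0.35 (0.32 to 0.38), and the intervals overlap. In the bins directly beside the members the ratio was 0.33 (0.24 to 0.43), and at 5 kb from them 0.10 (−0.01 to 0.20). With at least 12 T4 Myc reads the ratio was 0.41, for 400 of only 757 bins, 15 of them members. The members with 12 or more T4 Myc reads had 0.08 (−0.51 to 0.70). Per bin, 240 members (60%) had a ratio above 0, against 62.5% of the 4429 bins. A ratio below 0 was found in 151 members and in 1595 of the 4429. At least 2-fold with 5 or more Myc reads was reached by 64 members (16%), against 23.3% of the 4429 bins and 4.46% of all bins. The opposite, 2-fold lower with 5 or more IgG reads, held in 17 members (4.25%), against 4.13% and 1.25%. B0 Myc was the deeper library, so 5 reads were a lower level there than in B0 IgG.

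The highest B0 ratios at members rested on few reads. A set of 6 bins shared the top value of 3.56, with 8 B0 Myc and 0 B0 IgG reads each. They were chr2:119479001-119479500, chr3:126653001-126653500, chr7:100736501-100737000, chr11:60375501-60376000, chr16:31153001-31153500 and chr18:62294501-62295000. In 4 of these 6, both T14 libraries had 0 reads, and B4 Pol2 ranged from 1 to 9 reads over the 6. At chr4:126746001-126746500, 1 of the bins lowest in the ranking, B0 Myc had 15 reads against 1 of IgG, while both B4 Myc libraries had 0.

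With 10058-F4, Myc in LPS-treated B cells was also close to IgG at members. The Myc library averaged 0.545 RPM (722 reads), and its log2 ratio to the 2 IgG libraries was 0.18 (0.05 to 0.32), against 0.50 (0.47 to 0.54) at the other T cell bins. The intervals of members and others do not overlap. By library, Myc was 0.545 RPM and IgG 0.538 and 0.455 RPM at members, with a two-sided exact permutation p of 0.667 over the 1 Myc and 2 IgG libraries, where 0.333 is the smallest possible. At least 2-fold with 5 or more Myc reads was found in 18 members (4.50%), against 13.9% of the 4429 bins and 0.624% of all bins. With 5 or more reads over the 2 IgG libraries, 36 (9%) were 2-fold lower, against 8.29% and 3.30%. The 2 IgG libraries together were deeper than the Myc library, so 5 reads were a lower level there. The counts in the 2 directions are therefore not to be compared. The 2 B cell Myc libraries that took no part in the choice both gave ratios just above 0 at members.

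**Figure D4:**
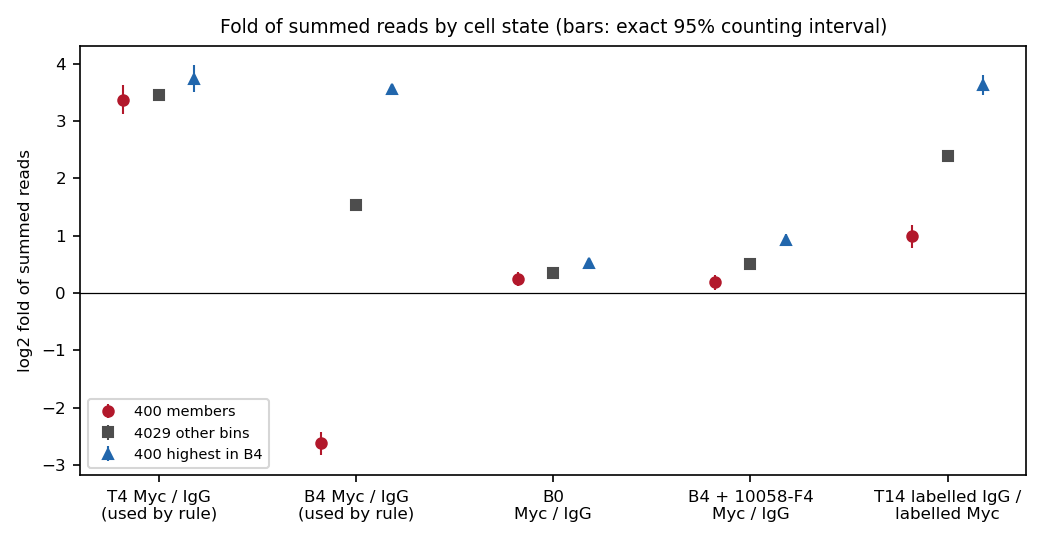
Log2 fold of summed reads in 5 cell states at the members (red circles), the other T cell bins (grey squares) and, for contrast, the 400 T cell bins with the highest B4 ratio (blue triangles), with exact 95% binomial intervals. In the 3 states that the choice did not use, members lie at 0.24 in B0, 0.18 with 10058-F4 and 0.99 in T14, below both other sets, with an interval that overlaps that of the other T cell bins in B0.

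At 14 h, the library labelled T14 IgG was lower at members than at the other T cell bins, whereas the intervals of the library labelled T14 Myc overlapped. Which of them holds Myc is not settled by the labels, so each value below is given by label only. Labelled T14 IgG averaged 0.610 RPM (774 reads) and labelled T14 Myc 0.308 RPM (288 reads) at members, a log2 ratio of 0.99 (0.79 to 1.19). At the other T cell bins these levels were 1.74 and 0.332 RPM, a ratio of 2.39 (2.34 to 2.45), and at the 400 T cell bins highest in B4 the ratio was 3.63 (3.45 to 3.80). The intervals of the library labelled Myc overlapped between members and others (0.273 to 0.345 and 0.320 to 0.344 RPM), and those of the library labelled IgG did not (0.568 to 0.655 and 1.72 to 1.77 RPM). Around the members the ratio was 0.93 (0.78 to 1.08) in the bins beside them and 0.50 (0.33 to 0.68) at 5 kb, and around the others it was 1.69 (1.65 to 1.74) and 0.48 (0.43 to 0.54). The members' ratio was therefore within counting error of that in the bins beside them. Scaling by background bins gave 1.37 at members. A T4 minimum of 12 reads gave 2.62, for 400 of only 757 bins, 15 of them members.

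Few members reached a 2-fold T14 difference in either direction. At least 2-fold with 5 or more reads in labelled T14 IgG was found in 30 members (7.50%), against 39.3% of the 4429 bins and 0.495% of all bins. The opposite direction held in 2 members (0.500%), against 0.248% and 0.139%. The median member had 1 read in labelled T14 IgG and 0 in labelled T14 Myc, and the median per-bin log2 ratio, with 0.1 RPM added, was 0.99, against 2.13 at the other T cell bins. Of the 30, 21 held at least 5 B4 Pol2 reads, which is 17.6% of the 119 members with that much Pol2. Among the 281 members with fewer Pol2 reads, 9 (3.2%) had that direction. The same split in the other T cell bins gave 55.5% and 7.47%. In the opposite direction, labelled T14 Myc over labelled T14 IgG, the split was 0 of 119 and 2 of 281 members, and 4 of 2932 and 5 of 1097 other bins.

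The largest T14 ratio, 4.88, was shared by chr1:74218001-74218500 and chr7:25088501-25089000, each with 9 reads in labelled T14 IgG and 0 in labelled T14 Myc. These bins had 21 and 4 B4 Pol2 reads, and 1 B4 Myc read each. At chr7:63817001-63817500 there were 8 against 0, and at chr11:76341001-76341500, chr16:76255501-76256000 and chr18:50253501-50254000 there were 7 against 0. Of these 6 bins, 4 held 17 or more Pol2 reads, and chr11:76341001-76341500 held 1. Lowest was chr12:74532001-74532500, with 0 reads in labelled T14 IgG and 4 in labelled T14 Myc. It was followed by chr1:133106001-133106500, chr3:52390501-52391000 and chr3:107003501-107004000, with 0 against 3.

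Across the members, the T14 ratio was highest in bins with most B4 Pol2. In the 127 members with 0 Pol2 reads it was 0.64 (0.25 to 1.04), and in the 23 with 20 or more it was 2.56 (1.65 to 3.62). At the other T cell bins it went from 0.88 (0.69 to 1.07) to 3.0 (2.92 to 3.08). With up to 4 Pol2 reads the intervals of members and others overlapped. With 5 to 9 Pol2 reads members had 0.84 (0.38 to 1.32) and the others 1.58 (1.40 to 1.76), and with 10 to 19 they had 1.32 (0.73 to 1.95) and 2.26 (2.15 to 2.38), so that intervals were apart in these 2 classes. Members were also lower within each class of T4 count. At 8 T4 Myc reads the ratio was 0.89 (0.63 to 1.15) in 248 members and 1.79 (1.70 to 1.88) in 1617 others. At 9 reads it was 0.98 (0.54 to 1.44) in 80 members and 2.11 (1.99 to 2.23) in 871 others, and at 10 to 11 it was 1.37 (0.87 to 1.91) in 57 and 2.37 (2.25 to 2.49) in 799. At 12 or more, a class with no upper limit, it was 0.90 (0.06 to 1.80) in 15 members and 3.34 (3.22 to 3.46) in 742 others. B0 Myc over IgG showed no such order with Pol2 among members, at 0.40 (0.15 to 0.65) with 0 Pol2 reads, −0.21 (−0.50 to 0.09) with 10 to 19 and 0.39 (0.00 to 0.79) with 20 or more. In the classes between, of 1, 2 to 4 and 5 to 9 reads, it was 0.30, 0.15 and 0.46. At the other T cell bins it was −0.05 (−0.18 to 0.08) with 0 Pol2 reads, 0.33 (0.26 to 0.39) with 10 to 19 and 0.43 (0.39 to 0.47) with 20 or more. Members were thus above the others with 0 Pol2 reads and below them with 10 to 19, and elsewhere intervals overlapped.

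**Figure D5:**
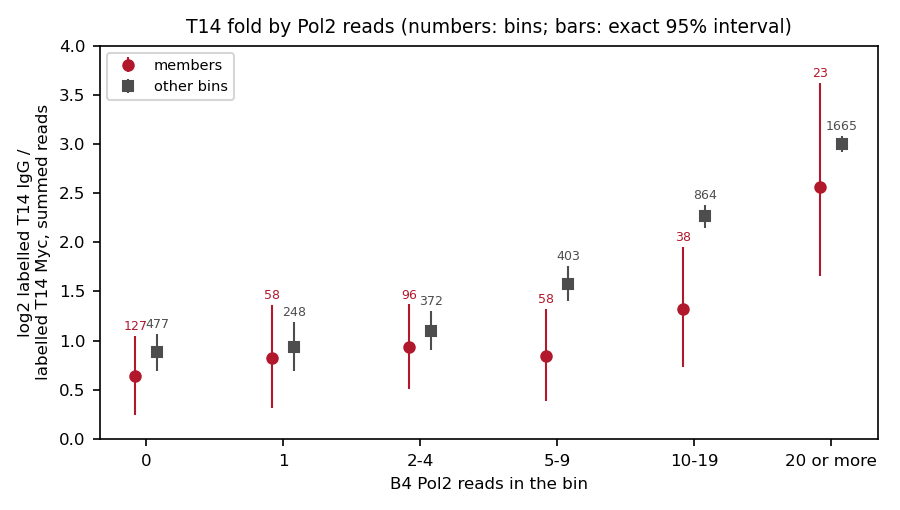
Log2 ratio of summed reads in labelled T14 IgG to labelled T14 Myc against the number of B4 Pol2 reads in the bin, for members (red circles) and other T cell bins (grey squares), with exact 95% binomial intervals and the number of bins above each. Members go from 0.64 without Pol2 reads to 2.56 with 20 or more.

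High T4 Myc counts were found at few members. The highest count, 35 reads (7.90 RPM), was at chr2:74470501-74471000, with 1 T4 IgG read, 1 B4 Myc read and 9 pooled B4 IgG reads. The next, 18 reads, was at chr2:74476001-74476500, 5500 bp away, with 0 T4 IgG, 0 B4 Myc and 8 B4 IgG reads. At these neighbours labelled T14 IgG had 2 and 1 reads, labelled T14 Myc 1 and 0, and B4 Pol2 2 and 0. These bins were picked for their T4 count, so a lower count in another library is no test of a change. Then came chr1:136372501-136373000 with 16 T4 Myc reads, and chr10:66931001-66931500, chr11:115223001-115223500 and chr12:102359001-102359500 with 13 each. In these 4, labelled T14 IgG had 1, 8, 2 and 4 reads and B4 Pol2 had 9, 11, 0 and 15.

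Members were scattered over the genome as single bins. Only 2 pairs were adjacent, chr10:43685501-43686000 with chr10:43686001-43686500 and chr16:76255001-76255500 with chr16:76255501-76256000. The pair on chromosome 16 held 24 and 25 Pol2 reads and 4 and 7 reads in labelled T14 IgG with 0 in labelled T14 Myc, whereas the pair on chromosome 10 held 1 and 1 Pol2 reads. A neighbouring bin also passed the T4 filter for 28 members (7%) and for 14.4% of the other T cell bins. Neighbouring members on a chromosome lay a median of 2536 kb apart, and 22 gaps were within 100 kb. Every autosome held members, from 9 on chromosome 16 to 38 on chromosome 11. As a share of the bins that passed the T4 filter, they ranged from 5.84% on chromosome 16 to 13.1% on chromosome 1. The 27 tied bins inside the cut were taken in order of position and the 25 outside came later, which raises this share on low-numbered chromosomes.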

How the data were processed

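The deposited files list aligned reads one by one, by position, length and strand, with no counts per region. The build was mm8 and the tools named were Bowtie 0.12.7 and CASAVA 1.0, per the submitters' processing notes. Their settings were not given in the sources used here. Positions were taken as counting from 1. Reads were counted as deposited, so the 5.29% of reads in B4 Myc replicate 1 that share a 5′ end stayed in. Pooled B4 IgG comprised all 3 libraries, which differed from each other by more than sampling noise, as did the B4 Myc libraries (in windows of 1 Mb, chi-square divided by its degrees of freedom was 12.9 to 69.7).

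Folds are ratios of summed reads scaled to library size, with exact binomial intervals, and sums have exact Poisson intervals. Per-bin ratios had 0.1 RPM added. The exact permutation tests over libraries compared mean log2 RPM and were added after seeing the data. Bins named were the lowest in the ranking, those highest in T4 Myc, Pol2, T14 or B0, lowest in T14, at the cut, or adjacent. The members and all measures were chosen with earlier results of these data known. Scripts used Python 3.11.15, numpy 2.4.6 and scipy 1.17.1 and were tested on simulated data. Alternatives changed the reads kept, their placement, the bins, pseudocount, threshold, number of members, control, scaling and libraries.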

Additional observations from a re-analysis of the deposited data

Results flagged for a closer look

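At the members the library labelled Myc was above the library labelled IgG at 4 h, which the choice required, and below it at 14 h, with a log2 ratio of −0.99 of labelled T14 Myc over labelled T14 IgG. For T14 the titles and the file names give opposite antibodies, so the sign of that ratio depends on which of them is right. B4 Myc was below IgG, which the choice required, while B0 Myc was above it, at 0.24, as was B4 Myc with 10058-F4, at 0.18. These differences were not tested, since in each 1 of the 2 values was fixed by the choice. The T4, T14 and B0 values rest on 1 library a side.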

How the results depend on the processing

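The ratio of Pol2 at members to the other T cell bins was 0.248 as reported. It was 0.355 with 1 RPM added in the ranking, 0.705 with at least 12 T4 Myc reads, 0.232 with 200 and 0.302 with 800 members, 0.166 with IgG left out of the ranking, 0.264 with reads moved by 75 bases and 0.235 with bins starting 250 bases later. Without the 10 members with most Pol2, an alternative chosen after seeing the data, it was 0.212. The minimum of 12 T4 Myc reads left 757 bins, and the 400 then taken shared only 15 with the members. The T14 ratio of 0.99 was 2.62 with at least 12 T4 Myc reads, 1.22 with 800 members and 1.37 with scaling by background bins. The B0 ratio of 0.24 was 0.41 with at least 12 T4 Myc reads. The B4 ratio of 0.45 in the unused pair was 1.51 with at least 12 T4 Myc reads, 0.27 with bins starting later and 0.80 when the repeat pair chose. The cause of these shifts was not tested. Without each B4 library in turn the ranges were 0.215 to 0.424 for Pol2, 0.21 to 0.33 for B0 and 0.92 to 1.24 for T14. No direction reversed. Without B4 Myc replicate 1 only 175 of the 400 members were kept, and without replicate 2 only 202. No paired analysis was possible because each of these 4 results is read in 1 library a side, and the 2 B4 pairs are given one by one in the report. Depth limits single bins most, since the median member held 0 to 5 reads in each library but T4 Myc.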
